A study of Drosophila melanogaster with 16 samples.

Results

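A set of 686 genes separated the PARP1 knockdown (KD) libraries from the wild type (WT) libraries of Drosophila S2 cells in the same direction in both months of the experiment. The members were chosen from the raw gene counts of all 13 WT and KD libraries by 1 rule. A gene was taken as higher when each KD library lay above each WT library within December and again within October, and as lower in the opposite case. Levels are counts-per-million (CPM) on the TMM scale of the 13 libraries, where TMM is the between-library scaling of edgeR. Of 12652 genes with 10 or more counts in total, 329 were higher (2.6%) and 357 were lower (2.82%). A further 5085 of the 17737 genes in the count table had fewer counts and were left out.

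The experiment holds 16 libraries of ribosomal-depleted total RNA, of which 3 (PARPi, the inhibitor PJ34 at 10 µM for 16 h) were used only at the end. The groups compared were, for December, 3 libraries of WT and 3 of KD, and for October 3 of WT and 4 of KD. S2 is an established line derived from Drosophila embryos with macrophage-like properties, and the KD cultures received siRNA against PARP1. The sources used here do not say what the WT cultures received in place of that siRNA, what the months stand for, or whether the replicates of each month are separate cultures, although the sequencing experiments are called independent. The p-values therefore measure the spread between these libraries, which may be technical. Reads counted on genes numbered between 77671859 and 90439074 per December library and between 58531662 and 78807134 per October library. The mitochondrial large ribosomal RNA (mt:lrRNA) made up 9.12% to 10.7% of the counts in WT and 7.89% to 9.09% in KD in December, and 9.84% to 12.4% in WT and 15.3% to 17.1% in KD in October, so its share moved with KD in opposite directions in the 2 months. The TMM factors did likewise, at 0.843 to 0.91 in WT and 0.967 to 1.03 in KD in December and at 1.1 to 1.18 in WT and 0.965 to 1.01 in KD in October. Their part in the results below was not tested beyond the alternative scalings given there. Of the defining hemocyte markers, Pvr, srp, crq and Ppn were above 100 CPM in each of the 13 libraries, while NimC1 stayed at or below 0.197 CPM. Of the other markers, Pxn stood at 15 to 53.7 CPM, eater at 5.91 to 13, He at 1.31 to 16 and Sr-CI at 0.252 to 4.22 CPM. Hml, another hemocyte gene, stood at 219 to 361 CPM in December and 11.2 to 18.2 CPM in October, so the cultures of the months differed in more than the KD. Pvr, srp, Ppn and Pxn were also lower in October, while crq, eater, He and Sr-CI were higher there.

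PARP1 is the nuclear enzyme that builds chains of ADP-ribose from NAD+ on histones, on other chromatin proteins and on itself. It binds nucleosomes and DNA breaks, and it is known for roles in DNA repair, in the loosening of chromatin at heat shock genes and, in S2 cells, in transcription and splicing. Flies carry a single nuclear enzyme of this kind, so siRNA against its mRNA lowers the protein as a whole, while a catalytic inhibitor leaves the protein in place.

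The Parp1 mRNA (FBgn0010247, chromosome 3R, 3461351 to 3587054, minus strand, BDGP6) was read first as a check of the labels. It stood at 182, 194 and 170 CPM in WT and 171, 179 and 147 CPM in KD in December, and at 90.5, 89.3 and 72.3 CPM in WT and 73.5, 77.6, 84.2 and 72.8 CPM in KD in October. The groups overlapped in both months. The log2 fold change over both months was -0.13 (standard error 0.059, adjusted p = 0.148 from edgeR), and an exact two-sided permutation test with labels permuted within months gave p = 0.0857 over 700 labelings. The mRNA counts alone thus did not tell the libraries labelled KD from WT, and the labels are used as given. The study checked the loss of the protein by Western blot, which was not analysed here.

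With treatment and month in 1 model, 1895 genes passed an adjusted p of 0.05, of which 930 rose (7.35%) and 965 fell (7.63%) in KD. Of these calls, 618 (32.6%) were also separated in the same direction in both months. Among the 329 higher genes 288 passed the test, and among the 357 lower genes 330 did. Separation and test use the same values, so one does not support the other. The changes were small. The median log2 fold change was 0.23 over the higher genes (0.19 in December and 0.24 in October, each month fitted alone) and -0.30 over the lower genes (-0.30 and -0.29), beside 0.03 over all genes tested, and 78.7% of the higher and 82.6% of the lower genes changed by less than 0.5 on the log2 scale. A mean of at least 1 CPM in each month was reached by 281 of the higher and 327 of the lower genes. With the month left out of the model, 6 of the higher and 6 of the lower genes passed the test.

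The number of members varied with the libraries used and with the scaling. The rule asks each KD library to clear each WT library, so leaving 1 out loosens it. A larger count was thus largely built in, at 364 to 735 higher and 376 to 581 lower genes with each library left out. Without KD December replicate 2 the counts were 735 higher and 576 lower, and without WT December replicate 1 they were 566 and 581. With library sizes taken from all genes but the 20 with the most counts, and no TMM factors, the counts were 353 and 322, but only 167 of the 329 higher and 182 of the 357 lower genes were again members. Beside the members, 234 genes were higher in December and lower in October (1.85%) and 237 lower in December and higher in October (1.87%). With the scaling just named these became 980 and 64.

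**Figure D1:**
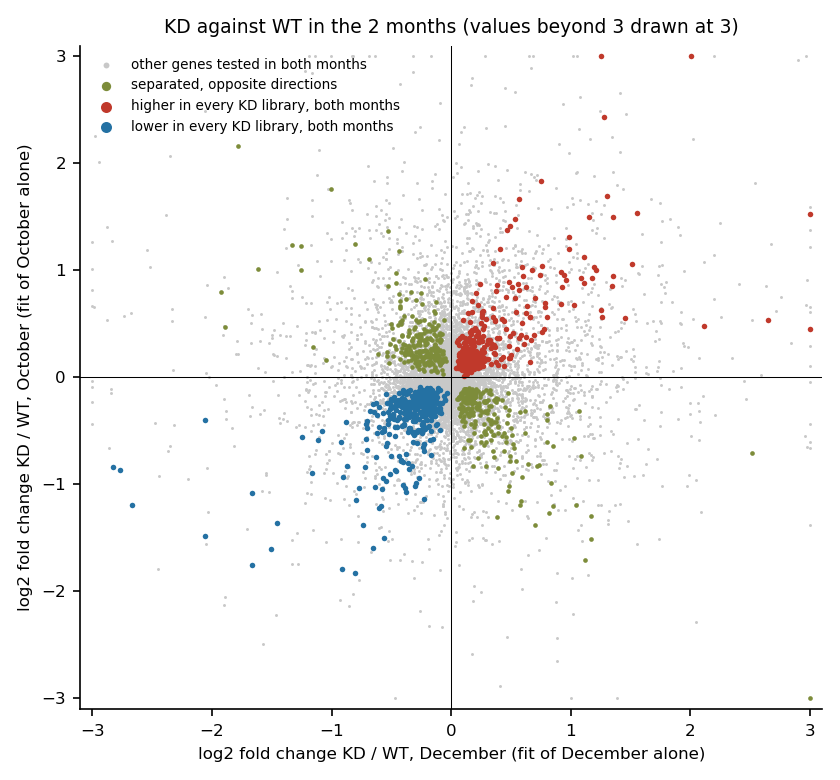
Log2 fold change of KD against WT in December (horizontal) and October (vertical), each month fitted alone, with 1 point per gene tested in both months. The 329 higher genes (red) and 357 lower genes (blue) lie in the quadrants of equal direction by the rule that chose them, and the 234 and 237 genes separated in opposite directions (green) lie in the other quadrants.

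The months share no library, so genes called in one month were looked up in the other, over 11053 genes tested in both. In December alone, 304 genes rose (2.75%) and 762 fell (6.89%). In October alone, 1642 rose (14.9%) and 1688 fell (15.3%). Of the 762 genes that fell in December, 269 (35.3%) fell in October and 90 (11.8%) rose there. Of the 304 that rose in December, 86 (28.3%) rose in October and 59 (19.4%) fell. Of the 1642 that rose in October, 86 (5.24%) rose in December and 90 (5.48%) fell, beside 2.75% and 6.89% of all genes tested in both. A positive log2 fold change in December, of any size, was held by 60.5% of the 1642 beside 54.5% of all these genes. Of the 1688 that fell in October, 269 (15.9%) fell in December and 59 (3.5%) rose. The log2 fold changes of the 2 months, over these 11053 genes, had a Pearson r of 0.08 and a Spearman rho of 0.11, and over 7416 genes of at least 1 CPM in each month 0.14 and 0.15. These are across genes, which share libraries and are not replicates. A difference of the KD effect between months was called in 1784 genes (14.1%), and in 27 of the higher (8.21%) and 38 of the lower members (10.6%). The members were chosen for equal direction in the 2 months of these same libraries. Their smaller shares are therefore partly set by the rule and are no support for it.

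The higher genes chosen for the size of their change were all at low level, with group means of at most 14.5 CPM (CBP in December KD). CBP, a calcium-binding protein of the EF-hand type, stood at 8.99, 5.01 and 6.08 CPM in WT and 14.9, 15.4 and 13.1 CPM in KD in December, and at 3.1, 6.36 and 7.2 CPM in WT and 12.3, 10.2, 9.37 and 9.63 CPM in KD in October. It rose by 1.01 on the log2 scale (standard error 0.15, adjusted p = 0.000143). Alp10, an alkaline phosphatase, went from 4.71 to 5.44 CPM in WT to 7.79 to 8.15 CPM in KD in December, and from 3.24 to 3.54 CPM to 5.58 to 7.57 CPM in October (log2 fold change 0.85, standard error 0.086). These groups lay apart by more than their own range in both months. Dpp10, of the dipeptidyl peptidase family, rose by 0.84 on the log2 scale. Spn88Eb, a serpin, stood at 1.29 to 1.39 CPM in WT and 2.05 to 2.67 CPM in KD in December and at 5.93 to 6.51 CPM and 7.92 to 10.3 CPM in October, a log2 fold change of 0.67. Its level was several-fold higher in October than in December in WT and KD alike. The others chosen for size were CG9782 (1.12), CG3655 (1.26), CG10163 (0.95), CG43078 (0.91), yellow-k (0.70), corn (0.66, a microtubule-binding protein) and CG16758 (0.63), each given as a log2 fold change and each with an adjusted p below 0.05. The 28S ribosomal RNA pseudogene 28SrRNA-Psi:CR45859 (0.75) shares sequence with the many copies of the ribosomal genes, so its count is uncertain.

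The abundant higher genes with the widest gap between groups were an enzyme of glycolysis, a malic enzyme and a transporter. Ldh, lactate dehydrogenase, which turns pyruvate into lactate and restores NAD+, stood at 175, 141 and 183 CPM in WT and 207, 210 and 219 CPM in KD in December, and at 163, 185 and 207 CPM in WT and 332, 283, 272 and 295 CPM in KD in October. It rose by 0.52 on the log2 scale (standard error 0.075, adjusted p = 0.000139). The gap between the groups was wider in October. Men, the NADP-dependent malic enzyme, stood at 163, 125 and 155 CPM in WT and 193, 185 and 188 CPM in KD in December and at 123, 124 and 128 CPM in WT and 151, 148, 148 and 150 CPM in KD in October, a log2 fold change of 0.30 (standard error 0.052). MFS3, a transporter of the major facilitator superfamily, went from 105 to 149 CPM in WT to 180 to 185 CPM in KD in December and from 79.9 to 92.4 CPM to 144 to 174 CPM in October (0.70, standard error 0.077). The gene lists below were written by hand, and their counts stand beside 7.35% of all genes tested that rose, 7.63% that fell, 2.6% that were higher members and 2.82% that were lower members. Of 16 glycolysis genes, 4 rose (25%), none fell and 3 were members (18.8%), with a median log2 fold change of 0.12 beside 0.03 over all genes tested. The members were Ldh, Pgi and Pfk, of which Pfk catalyses the committed step of the pathway. Pgi went from 94.5 to 107 CPM to 118 to 122 CPM in December and from 96.3 to 105 CPM to 125 to 146 CPM in October (log2 fold change 0.33), and Pfk from 81.9 to 96.9 CPM to 104 to 113 CPM and from 66.1 to 72.6 CPM to 78.3 to 85.1 CPM (0.27). The other called gene was Ald1 (0.19), and PyK (0.09), Eno (0.03) and Gapdh1 (0.07) did not pass the test.

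Genes of stress and signalling were also among the higher members. stv, the BAG-domain partner of Hsp70 (starvin), stood at 5.23, 4.49 and 4.94 CPM in WT and 6.74, 7.19 and 8.13 CPM in KD in December, and at 13, 16.8 and 17.7 CPM in WT and 26.4, 22.4, 19.2 and 23.7 CPM in KD in October. It rose by 0.56 on the log2 scale (standard error 0.081, adjusted p = 0.000143). Of 24 heat shock genes tested, 4 rose (16.7%), 1 fell and 2 were members, the other being Hsf, the heat shock transcription factor (0.11, adjusted p = 0.0459). Another 2 heat shock genes were higher in December and lower in October. The Hsf call was lost with 10 of the 13 libraries left out in turn (adjusted p from 0.0548 to 0.1). Of 21 unfolded protein response genes, 7 rose (33.3%), 1 fell, 1 was higher in December and lower in October and 4 were members. The members were Gp93 (log2 fold change 0.23) and Cnx99A (0.17), chaperones of the endoplasmic reticulum, and Hrd3 (0.15) and sip3 (0.18) of the ubiquitin ligase that clears misfolded proteins from it. Gp93 stood at 597 to 629 CPM in WT and 656 to 685 CPM in KD in December and at 320 to 338 CPM and 394 to 417 CPM in October. Of 11 JAK/STAT genes, 4 rose (36.4%), none fell and 2 were members, the receptor dome and the feedback inhibitor Socs36E. Socs36E stood at 202, 211 and 210 CPM in WT and 279, 251 and 275 CPM in KD in December and at 364, 382 and 362 CPM in WT and 447, 436, 436 and 425 CPM in KD in October (log2 fold change 0.30, standard error 0.045). dome went from 51.5 to 57.3 CPM to 59.2 to 64.3 CPM and from 24.3 to 28.9 CPM to 33.9 to 35.2 CPM (0.28). The rises in these 3 lists were fewer once a trend on length was removed, as given below.

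Lists of nuclear and cell cycle proteins held higher members too. Of 35 DNA damage and repair genes, 9 rose (25.7%), none fell and 4 were members: Ku80 of the end-joining pathway (log2 fold change 0.19), hay, the XPB helicase of TFIIH (0.21), the mismatch repair gene spel1 (0.20) and the abasic-site nuclease Rrp1 (0.15). Another 1 of the repair genes was higher in December and lower in October. Of 42 cell cycle genes, 8 rose (19%), 1 fell and 4 were members, namely CycB3 (0.32), CycB (0.23), Wee1 (0.17) and polo (0.15), which act at mitosis. Another 2 cell cycle genes were higher in December and lower in October, and 1 was the reverse. CycB3 stood at 11.5 to 12.9 CPM in WT and 13.1 to 15.4 CPM in KD in December and at 6.23 to 6.73 CPM and 7.87 to 9.24 CPM in October. Of 21 insulator and architectural genes, 5 rose (23.8%), 1 fell and 4 were members: su(Hw) (0.26) and mod(mdg4) (0.17), which act in 1 insulator complex, Chro (0.26) and the condensin subunit glu (0.20). Of 21 hnRNP genes, 7 rose (33.3%), none fell and 5 were members, with Syp (0.24), nonA (0.19), mub (0.18) and HnRNP-K (0.12) called and sqd (0.11, adjusted p = 0.15) not. Syp stood at 61.3 to 75.3 CPM in WT and 80.2 to 85.2 CPM in KD in December and at 66.9 to 76.1 CPM and 79.5 to 86 CPM in October. The HnRNP-K call was lost with 11 of the 13 libraries left out in turn (adjusted p from 0.05 to 0.0959), that of Rrp1 without KD October replicate 1 or WT October replicate 2 or 3 (0.0531 to 0.0655), and those of polo (0.071) and spel1 (0.0508) without WT October replicate 3. These lists hold long transcripts, with a median summed exon length of 8029 nt for hnRNP genes, and their counts fell once a trend on length was removed, as given below.

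The lower genes chosen for the size of their change included a lipase, a sterol-binding protein, a tetraspanin and the hemocyte gene He. Lip4, a lipase, stood at 4.49, 4.82 and 4.66 CPM in WT and 2.39, 2.66 and 2.6 CPM in KD in December, and at 14, 15.4 and 15 CPM in WT and 8.65, 8.39, 8.86 and 8.04 CPM in KD in October. It fell by 0.83 on the log2 scale (standard error 0.059), with the smallest adjusted p of the named members (4.61e-08). The groups lay far outside each other's range in both months. Npc2b, a sterol-binding protein of the NPC2 family, fell from 5.45 to 5.75 CPM to 3.71 to 3.75 CPM and from 19.1 to 23.8 CPM to 10.6 to 11.1 CPM (-0.84, standard error 0.075). Tsp42Eg, a tetraspanin, fell from 2.68 to 3.26 CPM to 1.31 to 2.01 CPM in December and from 46.1 to 58.4 CPM to 13.4 to 16.8 CPM in October (-1.48, standard error 0.13), and Picot, a putative phosphate cotransporter, by -0.90.

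He, or Hemese, a glycoprotein of the hemocyte surface, stood at 2.52, 2.6 and 2.54 CPM in WT and 1.53, 1.77 and 1.31 CPM in KD in December, and at 16, 15.4 and 14.5 CPM in WT and 6, 7.33, 5.22 and 5.27 CPM in KD in October (log2 fold change -1.13, standard error 0.11, adjusted p = 2.45e-06). atilla, a surface protein used as a marker of lamellocytes, fell from 1.37 to 1.46 CPM to 0.839 to 1.05 CPM and from 4.83 to 6.25 CPM to 2.49 to 2.85 CPM (-0.86). In bulk RNA, fewer cells of a type and less RNA per cell cannot be told apart. Of 25 hemocyte genes tested, 4 rose (16%), 4 fell (16%) and 3 were members, all lower: He, NimB5 (-0.97) and the scavenger receptor Sr-CI (-0.30, adjusted p = 0.0853). The median of the list was -0.02, and the summed level of the 10 hemocyte markers was 1878 to 2119 CPM in WT and 1828 to 1960 CPM in KD in December, with overlap, and 1009 to 1146 CPM and 1147 to 1187 CPM in October, where the KD sums were the higher. In October most of this sum came from Pvr (330 to 410 CPM), Ppn (265 to 374 CPM), crq (227 to 244 CPM) and srp (114 to 123 CPM). The sum therefore says little about markers of low level. Hml, also in the sum, fell without being a member (log2 fold change -0.31, adjusted p = 0.0167 from edgeR, with -0.39 in December and -0.24 in October). A change in the make-up of the cultures was not tested. Of the markers of other cells, those of muscle summed to at most 1.04 CPM in each library and the 4 neuron markers to 58.6 to 75.7 CPM. For both, KD and WT overlapped in each month. Those of fat body (Lsp1alpha, Lsp2, Fbp1) summed to at most 0.0799 CPM, and in December WT (0.0245 to 0.0647 CPM) lay just below KD (0.0671 to 0.0799 CPM). The 3 male markers summed to 193 to 209 CPM in WT and 147 to 172 CPM in KD in December. They overlapped in October (137 to 160 CPM and 154 to 177 CPM). Of the 2 markers of ovarian somatic cells, tj stood at 0 to 0.0152 CPM, while fs(1)Yb was itself a higher member (log2 fold change 0.27).

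The other genes chosen for size were CG43799 (log2 fold change -1.39), pk, the planar polarity gene prickle (-0.92), CG11825 (-0.77), CG31997 (-0.69), RpS5b (-0.68) and CG34437 (-0.63). RpS5b, a ribosomal protein gene with a close paralog, RpS5a, stood at 25.6, 30.6 and 33.9 CPM in WT and 16.7, 20.2 and 18.4 CPM in KD in December and at 6.35, 8.29 and 9.93 CPM in WT and 5.38, 5.41, 4.69 and 5.3 CPM in KD in October, and reads shared with the paralog make its count uncertain. Of the abundant lower genes, FBgn0040813, for which the annotation used here gives no symbol, had the widest gap. It stood at 4215, 4317 and 4442 CPM in WT and 2368, 2926 and 2657 CPM in KD in December and at 3778, 3796 and 3834 CPM in WT and 2700, 2840, 2832 and 2761 CPM in KD in October (-0.57, standard error 0.066). CG33494 fell from 122 to 127 CPM to 80.7 to 96.7 CPM and from 208 to 226 CPM to 163 to 179 CPM (-0.42), and CG11400 from 247 to 274 CPM to 149 to 184 CPM and from 116 to 125 CPM to 96.8 to 101 CPM (-0.46).

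**Figure D2:**
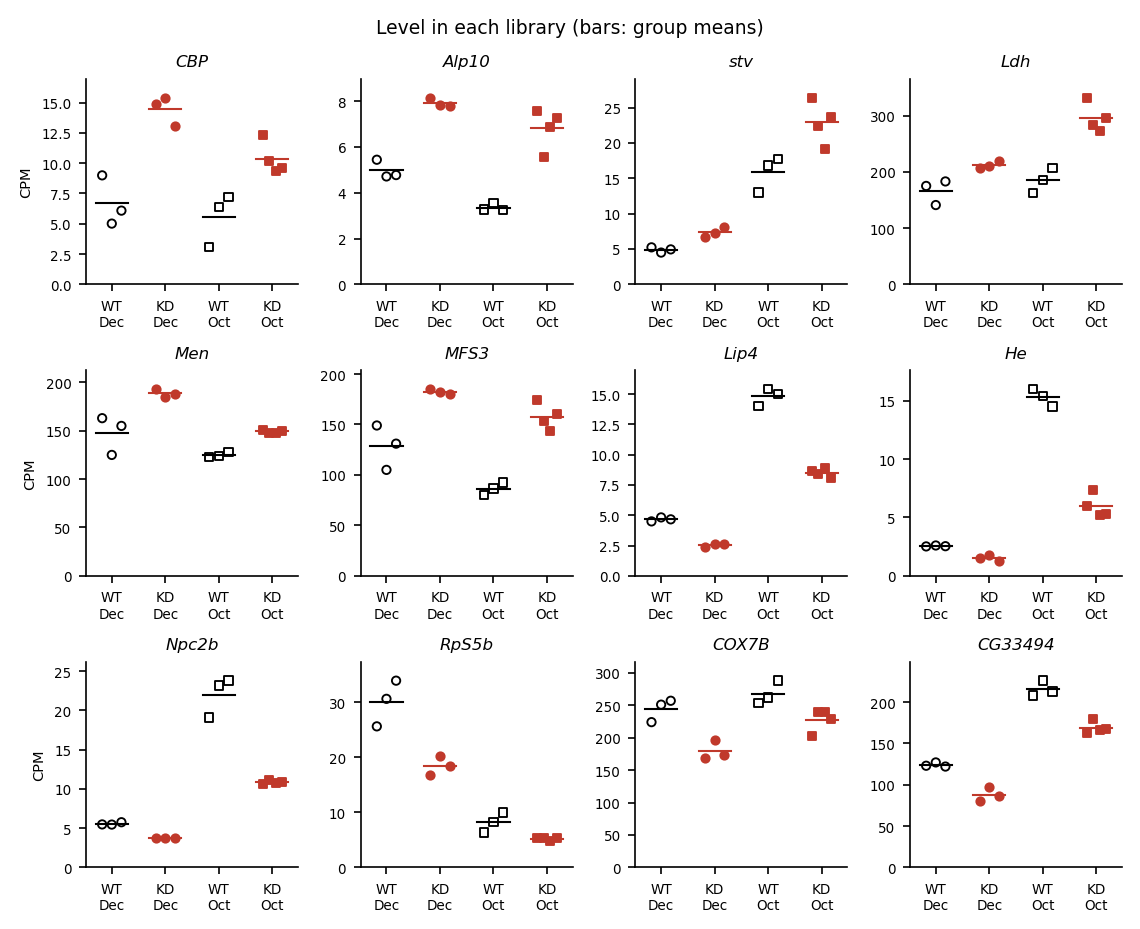
CPM (vertical, linear, from 0) of 12 members in each of the 13 libraries, WT open and KD filled, December as circles and October as squares, with group means as bars. In each panel no KD point reaches the WT points of its month. For RpS5b, Lip4, He, Npc2b, stv and CG33494 the group means differ by a larger ratio between months than between KD and WT.

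Nuclear genes of the mitochondrial respiratory chain and of the mitochondrial ribosome held more falls than any other list of protein-coding genes. Of 35 nuclear genes of complex I, 17 fell (48.6%), none rose and 5 were members, with a median log2 fold change of -0.17. ND-MLRQ stood at 418, 450 and 485 CPM in WT and 291, 364 and 331 CPM in KD in December and at 387, 440 and 444 CPM in WT and 326, 377, 377 and 357 CPM in KD in October (log2 fold change -0.34, standard error 0.063). The other members were ND-MWFE (-0.30), ND-13B (-0.23), ND-B17.2 (-0.22) and ND-B14 (-0.18, adjusted p = 0.0503). Of 42 genes of complexes II to V, 17 fell (40.5%), 1 rose and 5 were members: UQCR-14 (-0.33) and UQCR-11 (-0.29) of complex III, COX7B (-0.33) and COX7C (-0.25) of cytochrome c oxidase, and SdhC (-0.28) of complex II. COX7B stood at 224, 251 and 257 CPM in WT and 169, 197 and 173 CPM in KD in December and at 254, 262 and 288 CPM in WT and 203, 239, 239 and 229 CPM in KD in October. Of 71 mitochondrial ribosomal protein genes, 24 fell (33.8%), none rose and 2 were members (2.82%, the same share as over all genes), mRpS17 (-0.23) and mRpS33 (-0.22), so most of these falls came without separation in both months. Another 2 were lower in December and higher in October. None of the 19 tested genes of the mitochondrial genome itself was a member. These lists hold short transcripts, with median summed exon lengths of 871, 874 and 783 nt beside 1764 nt over all genes tested.

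Some other lists held lower members. Of 33 aminoacyl-tRNA synthetase genes, which are not short (median 2545 nt), 5 fell (15.2%), none rose and 3 were members: AsnRS (log2 fold change -0.27), ThrRS (-0.23) and HisRS (-0.22). As many were separated in opposite directions, 1 higher in December and lower in October and 2 the reverse. ThrRS stood at 408 to 462 CPM in WT and 390 to 396 CPM in KD in December and at 288 to 332 CPM and 245 to 256 CPM in October. Of 18 genes of the ATF4 pathway and amino acid synthesis, 3 fell (16.7%), 1 rose and 2 were members, Nmdmc of folate metabolism (-0.33) and P5cr of proline synthesis (-0.22). Another 3 of that list were higher in December and lower in October. Of 49 translation factors, 4 rose (8.16%), 3 fell (6.12%), 2 were lower members and 12 were lower in December and higher in October, with a median of 0.06. Of these members, the initiation factor eIF1 fell from 1326 to 1497 CPM to 937 to 1151 CPM in December and from 1000 to 1130 CPM to 800 to 916 CPM in October (-0.37). Of 19 autophagy genes, 2 fell (10.5%), none rose and 1 was a member, the ubiquitin-like protein Atg12 (-0.36). Another 1 was higher in December and lower in October, and 1 was the reverse. In the list of 25 Sm and snRNP genes 5 rose and 5 fell. Its lower members were SmD1 (-0.26), Sf3b5 (-0.24) and SmF (-0.19). Of 90 cytoplasmic ribosomal protein genes only RpS5b and RpS15Ab (-0.22) were members, 2 fell and 1 rose, while 56 were separated in opposite directions, lower in December and higher in October, with medians of -0.27 in December and 0.23 in October.

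Several lists held no member. Of 12 genes of poly(ADP-ribose) turnover and NAD synthesis none passed the test in edgeR, with a median log2 fold change of 0.00, and none was separated. At an unadjusted p under 0.05, 1 of them was higher and 3 were lower, and DESeq2 called 1 as higher. For the lists above with no call in one direction, the genes in that direction at an unadjusted p under 0.05 numbered 2 higher among the aminoacyl-tRNA synthetases, 1 lower among the JAK/STAT genes, 1 lower among the repair genes and 0 in the others, and DESeq2 called 0 in each. Polycomb genes (4 of 22 rose and 1 fell) and chromatin remodelers (5 of 25 rose and 2 fell) had calls but no member, and the 15 antimicrobial peptide genes had 1 call, a fall, and 4 genes lower in December and higher in October. Of 245 tested genes named by the study as hosts of circular RNA in these samples, a list that is not independent of them, 38 rose (15.5%), 15 fell (6.12%), 11 were higher members (4.49%) and 6 were lower members (2.45%). A further 25 were lower in December and higher in October, and 3 were the reverse. The hosts are long (median 4587 nt). With the trend on length removed, as given below, 10 rose and 12 fell, and 5 were higher and 10 lower members. Msr-110 was the member of this list with the smallest adjusted p. It stood at 478, 446 and 465 CPM in WT and 684, 603 and 660 CPM in KD in December and at 666, 817 and 831 CPM in WT and 1001, 996, 901 and 938 CPM in KD in October (log2 fold change 0.39). Gene counts do not tell linear from circular transcripts. Of 1118 long non-coding RNA genes tested, 28 rose (2.5%), 40 fell (3.58%), 14 were higher members (1.25%) and 12 lower members (1.07%), each a smaller share than over all genes. Another 21 were lower in December and higher in October, and 2 were the reverse. Only 272 of the 1118 reached 1 CPM in each month, beside 7416 of all 12652 genes tested, so these shares compare genes of unlike level. With the trend on length removed, 43 rose and 11 fell, and 27 were higher and 3 lower members. The most abundant of those named was lncRNA:CR32368, which fell from 471 to 542 CPM to 399 to 456 CPM in December and from 596 to 666 CPM to 262 to 321 CPM in October (-0.71).

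**Figure D3:**
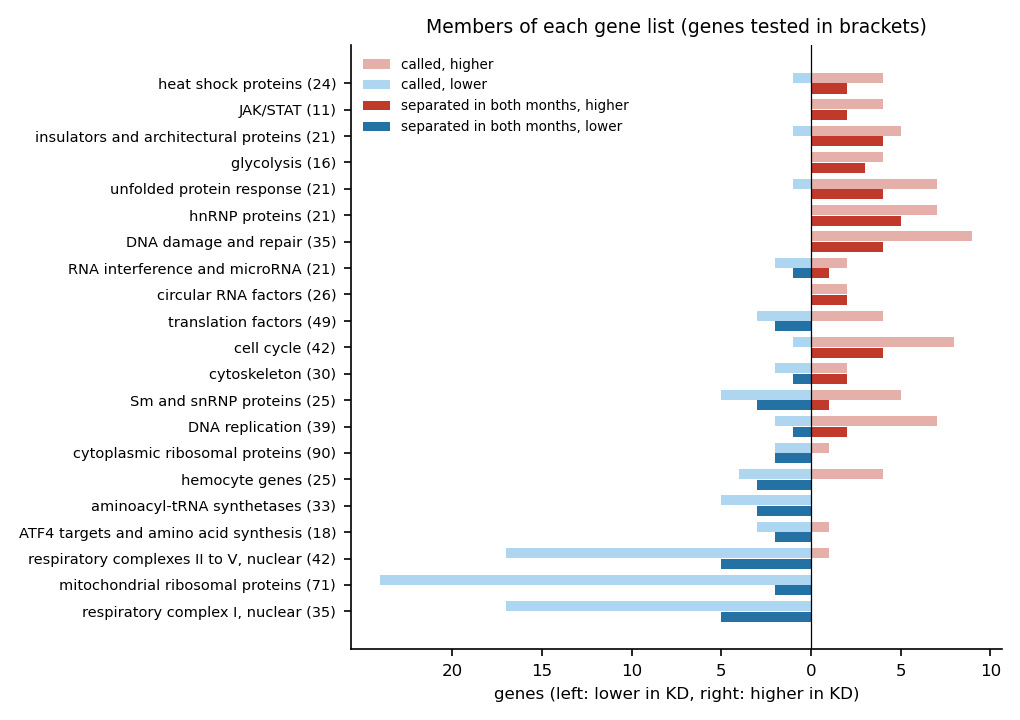
Number of genes (horizontal, lower in KD to the left and higher to the right) in each gene list with 2 or more members, where pale bars are calls in the model of both months and dark bars are genes separated in both months. The respiratory and mitochondrial ribosomal lists lie to the left (17, 17 and 24 falls), and DNA repair, cell cycle and hnRNP lists to the right (9, 8 and 7 rises).

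Higher and lower members differed in transcript length, a property the rule did not use. The median summed exon length was 2910 nt for the higher genes, 1020 nt for the lower genes and 1764 nt for all genes tested. Among genes of at least 1 CPM in each month, lower members made up 20% of those under 500 nt, 12.8% between 500 and 1000 nt, 4.85% between 1000 and 2000 nt, 1.77% between 2000 and 4000 nt and 0.282% from 8000 nt upward. Higher members made up 0.571% and 0.414% of the shortest bins and 6.25% between 2000 and 4000 nt. The same order held among genes of 100 CPM or more, where lower members were 27.3% of 22 genes under 500 nt and none of 80 genes from 8000 nt, so it was not confined to genes of few counts. The median log2 fold change of all genes of at least 1 CPM went from -0.24 under 500 nt to 0.10 from 8000 nt (-0.39 to 0.05 in December and -0.12 to 0.12 in October). Genes without an intron were 7.65% of the higher, 16.6% of the lower and 16.7% of all genes tested, and 6.45%, 15.4% and 9.87% of those at 1 CPM or more in each month. The share of higher members was between 2.25% and 3.88% on each chromosome arm and that of lower members between 2.15% and 4.85%, with the highest of both on the small chromosome 4.

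With the trend on length removed, fitted on genes of at least 1 CPM and centred, 257 genes were higher and 312 lower. Of the 329 higher genes 174 (52.9%) and of the 357 lower genes 196 (54.9%) remained members, and 0 changed direction. The falls went from 17 to 6 in complex I, from 17 to 6 in complexes II to V and from 24 to 4 in mitochondrial ribosomal proteins, with 3, 4 and 0 lower members left. The rises went from 7 to 2 in hnRNP genes, from 9 to 3 in repair genes and from 8 to 3 in cell cycle genes, with 0, 2 and 1 higher members left. They went from 7 to 3 in the unfolded protein response, from 4 to 2 in JAK/STAT genes, from 4 to 1 in heat shock genes and from 5 to 2 in insulator genes. Of these lists 3, 2, 1 and 1 higher members were left, and the unfolded protein response had 1 lower member. In glycolysis, in contrast, 5 genes rose and 5 were higher members, and among aminoacyl-tRNA synthetases 9 fell and 6 were lower members. With library sizes without the 20 largest genes instead, 4 synthetases fell and 0 were lower members. In that scaling complex I had 12 lower members, complexes II to V 5 and the mitochondrial ribosomal proteins 9, and glycolysis kept 3 higher members. The removal of the length trend was chosen after the lengths were seen. With the trend fitted on all genes tested, 141 genes were higher and 541 lower, and 136 of the 329 higher and 317 of the 357 lower genes remained members. What produces the relation with length was not tested.

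**Figure D4:**
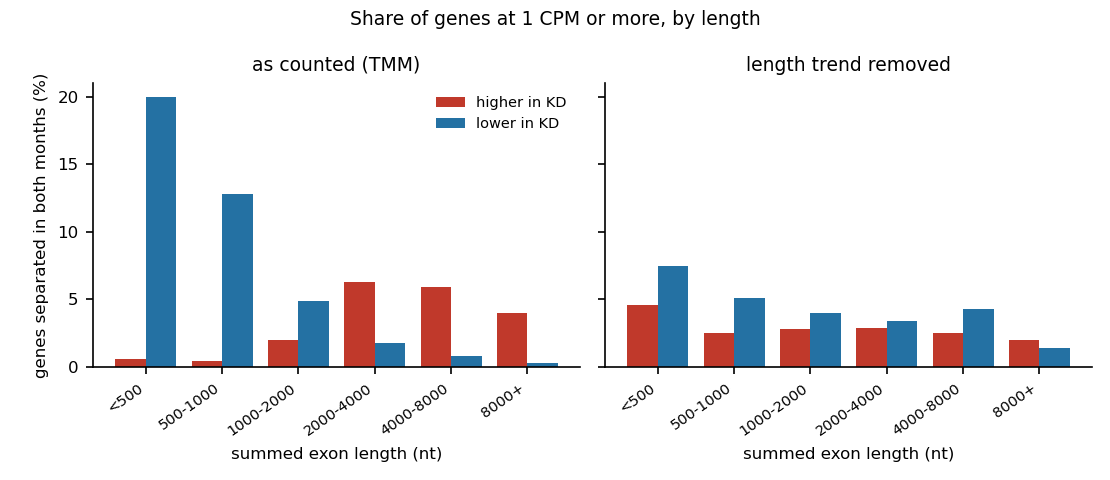
Share of genes of at least 1 CPM in each month that were higher (red) or lower (blue) in KD in both months (vertical, percent), by summed exon length in nucleotides (horizontal), as counted (left) and with the length trend removed (right). Lower members fall from 20% under 500 nt to 0.282% from 8000 nt on the left, and from 7.43% to 1.41% on the right.

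Some genes were separated as clearly as the members but in opposite directions in the 2 months, and the 6 named here were chosen for the size of that difference, so no test of it is given. MtnA, a metallothionein that binds copper and zinc, stood at 3287, 2356 and 3546 CPM in WT and 1012, 1467 and 1361 CPM in KD in December, and at 342, 448 and 524 CPM in WT and 896, 969, 810 and 906 CPM in KD in October. The KD libraries of both months lay between the WT libraries of December and those of October. The immune-induced gene edin stood at 3.1 to 4.78 CPM in KD in December, where 1 WT library stood at 22.5 CPM and the others at 4.98 and 6.65 CPM, and went from 3.18 to 4.74 CPM in WT to 7.45 to 8.16 CPM in KD in October. CG31337 went from 2.77 to 2.92 CPM to 1.28 to 1.62 CPM in December and from 0.692 to 0.904 CPM to 2.55 to 2.97 CPM in October. In the other direction, the neuropeptide gene CNMa rose from 0.925 to 1.13 CPM to 1.97 to 2.24 CPM in December and fell from 3.28 to 4.07 CPM to 1.45 to 1.78 CPM in October. Septin4 rose from 2.24 to 2.69 CPM to 3.76 to 4.26 CPM and fell from 20.8 to 24.9 CPM to 12.7 to 13.4 CPM. Timp, an inhibitor of matrix metalloproteases, rose from 2.79 to 3.74 CPM to 4.34 to 5.94 CPM and fell from 6.32 to 8.43 CPM to 4.18 to 4.44 CPM. For Septin4 and Timp, as for CNMa, the KD levels of the 2 months lay closer to each other than the WT levels did.

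**Figure D5:**
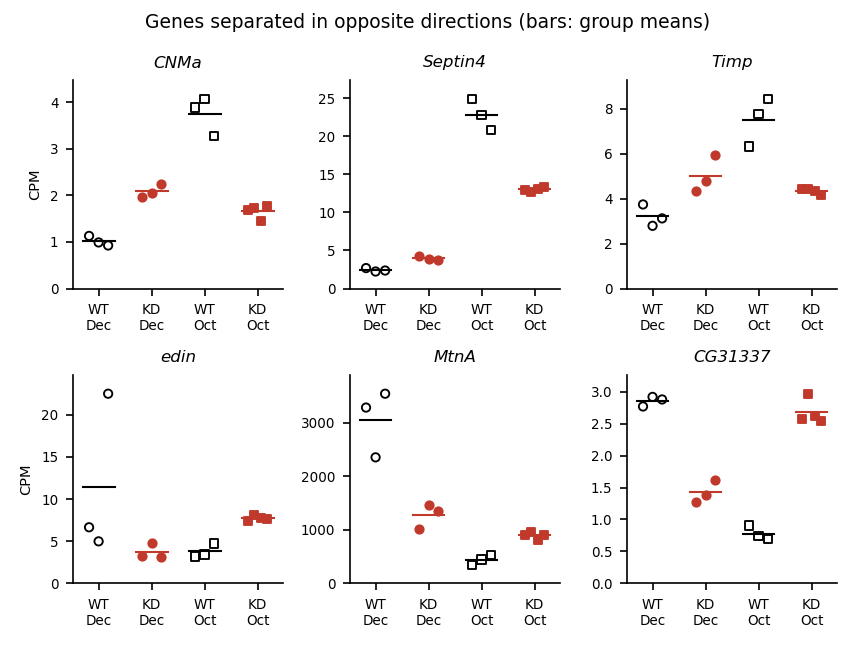
CPM (vertical, linear, from 0) of the 6 genes with the largest opposite changes in each library, WT open and KD filled, December as circles and October as squares, with group means as bars. For MtnA the December WT libraries (2356 to 3546 CPM) stand above and the October WT libraries (342 to 524 CPM) below all KD libraries (810 to 1467 CPM).

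The rule has a sharp edge. Just inside it, su(Hw) stood at 72.5 to 78.1 CPM in WT and 78.1 to 87.9 CPM in KD in December, where the nearest libraries differed by less than the printed digits, and Eb1, the microtubule plus-end protein, was higher in each KD library with a log2 fold change of 0.09 that was not called. On the lower side retm (-0.23), wal (-0.29) and CG9586 (-0.16) were just inside. The CG9586 call was lost with 5 of the 13 libraries left out in turn (adjusted p from 0.0535 to 0.0714). Just outside, Rbfox1, GCS2alpha and UGP (log2 fold changes 0.22, 0.22 and 0.21) each had 1 pair of libraries out of order and passed the test, as did snRNA:U12 (-0.71), while Tig (-0.12) and Fim (-0.08) did not.

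The 3 PARPi libraries were compared with the same December WT libraries as KD, so the values are set side by side only. The median log2 fold change in PARPi was 0.05 over the higher genes, -0.11 over the lower genes and -0.01 over all 11691 genes tested, and in PARPi 2 of the higher genes rose and 2 fell while 1 of the lower genes rose and 2 fell, of 18 rises and 16 falls in all. In December KD the medians over the same genes were 0.19 and -0.30.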

How the data were processed

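RNA-seq reads (paired-end, ribosomal RNA depleted) were processed by the authors, who aligned them to BDGP6 with STAR 2.6, counted reads on genes with HTSeq 0.10.0 and deposited the raw counts, whole numbers without normalization. The sources used here do not give the annotation release, whether counting used the strand, or how reads with more than 1 match were handled, which leaves the values of overlapping, antisense and near-identical genes uncertain. Of 17737 gene identifiers, 17599 matched the Ensembl annotation of BDGP6 (4 of the members did not), which gave symbols, positions and lengths. Total counts were 58531662 to 90439074 per library. Replicates differed beyond counting noise (chi-square per gene 7.35 to 61.8). This does not tell separate cultures from repeated preparations of 1 culture. Each library was counted as 1 sample.

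Genes with at least 10 counts over the 13 WT and KD libraries were scaled by TMM and fitted for treatment plus month by the quasi-likelihood method of edgeR 4.0.16 under R 4.3.3, with Benjamini-Hochberg adjustment at 0.05. All adjusted p-values are from edgeR unless another tool is named. Each month was also fitted alone, and the interaction of KD and month over both. Separation was read from CPM with no test. The scripts were tested on simulated data. Lengths are summed exon lengths.

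The members, the 45 gene lists and the rule for named genes were chosen with earlier results of these data known. Named were Parp1; 12 genes in each direction with the largest change common to both months among members called at 1 CPM or more; 3 in each direction with the widest gap at 100 CPM or more; up to 4 called members per list; 3 just inside and 3 just outside the rule; and 3 for each opposite pattern. Genes not covered by this rule (sqd, Sr-CI, ND-B14, UQCR-11, fs(1)Yb, Hml, the glycolysis genes that were not members and those in the closing section) were named after their values were seen. A few list entries that matched a wrong gene by a synonym were removed. Alternatives were DESeq2 1.42.0, RLE size factors, library sizes without the 20 largest genes, 2 forms of a length trend removed (spline with 5 degrees of freedom), no filter, filterByExpr, no month, all 16 libraries, the replicate number as a block, each month alone and each of the 13 libraries left out. Promoter letters were planned and not analysed here. PARPi was fitted with the December libraries.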

Additional observations from a re-analysis of the deposited data

Results flagged for a closer look

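Among the named genes, 21 had a KD effect that differed between the months by the interaction test of edgeR (adjusted p below 0.05), given as the log2 fold change of October minus that of December. Of the higher members these were CG3655 (1.10), MFS3 (0.36), NaCP60E (0.30), CycB (0.24), spel1 (0.26) and Chro (0.24), and UGP (0.25) just outside the rule, so the change was larger in October for each. Of the lower members CG43799 (-0.86), Tsp42Eg (-0.99), He (-0.62), Picot (-0.59), Npc2b (-0.45), Prx2 (-0.23) and lncRNA:CR32368 (-0.89) fell further in October, while CG11400 (0.34) fell further in December. The genes of opposite direction were chosen for this difference, so their test restates the choice: CNMa (-2.22), Septin4 (-1.52), Timp (-1.43), edin (2.65), MtnA (2.29) and CG31337 (2.78).

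In the KD October group 8 of 119 groups of 4 libraries had 1 library far from the others, where chance flags about 1 in 20. The gap of that library, as a share of the range of the group, was 0.853 for RpS5b, 0.835 for atilla, 0.845 for CG11825, 0.831 for CG31337, 0.94 for ND-MWFE, 0.833 for ND-13B, 0.92 for SmD1 and 0.934 for lncRNA:CR43958. For ND-MWFE the library was KD October replicate 1, at 68.4 CPM beside 78.3 to 78.9 CPM in the others, and for SmD1 it was the same library, at 93.4 CPM beside 107 to 109 CPM.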

How the results depend on the processing

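Of 2525 values of the 101 named members under 25 alternatives, 2235 kept direction and call, 290 kept direction and lost the call, and 0 turned direction. The members were chosen by their direction in these same libraries, so most alternatives could hardly turn a sign. The 0 is therefore no support for the members. The counts of genes varied with the processing. DESeq2 called 2418 genes. Removing the length trend fitted on all genes gave 346 rises, 22.7% of its calls beside 49.1%, with 141 higher members (123 called) and 541 lower. The trend fitted on genes of at least 1 CPM, chosen after seeing the data, gave 1153 calls (530 rises, 623 falls) and 424 genes lower in December and higher in October. Without the 20 largest genes in the library sizes, 980 genes were higher in December and lower in October and 64 the reverse, 1854 genes were called within December and 3013 for the interaction. With no month term 12 genes were called (6 rises, 6 falls), of which 6 higher and 6 lower members. December alone gave 1068 calls (305 rises) and October alone 3364 (1665 rises, 1699 falls).

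The replicate number as a block gave 904 calls (343 rises, 561 falls, 37.9% rises), with 195 higher and 282 lower members called, and Hsf, HnRNP-K, spel1, Rrp1, polo, Wee1, su(Hw) and CG9586 among those not called. Deviations from the group mean of libraries of equal number correlated with r of 0.296, 0 and -0.043 in December and 0.149, 0.139 and -0.015 in October. KD December replicate 1 and KD October replicates 1 and 2 correlated best with the WT library of their own number. The other KD libraries did not, as for KD December replicate 2, which correlated best with WT replicate 3 (0.343). With 3 or 4 libraries per group, these values cannot tell whether the numbers pair the libraries.

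Leaving out each library in turn gave 1189 to 2412 calls, 492 to 1295 rises, 697 to 1117 falls, 364 to 735 higher members (251 to 652 called), 376 to 581 lower members (320 to 521 called), 252 to 466 genes higher in December and lower in October and 222 to 339 the reverse, and 404 to 1363 calls within December, the lowest without KD December replicate 3 and the highest without replicate 2. The fewest calls over both months came without WT October replicate 3. The counts of members could hardly fall, since the rule asks less of fewer libraries.

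Parp1 passed the test only with the length trend of all genes removed (log2 fold change -0.21, adjusted p = 0.0221 from edgeR). The genes of opposite direction turned sign by construction where a month was fitted alone: CNMa 1.04, Septin4 0.71, Timp 0.64 and CG31337 -1.0 in December, and edin 1.01 and MtnA 1.01 in October. For the other changes of count the cause was not tested. Counting error limits genes of few counts, such as CG3655 with 24 to 154 counts per library.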

Other observations

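Some further members were picked after their values were seen and carry no test beyond the fit across all genes. Glyp, glycogen phosphorylase, stood at 142, 116 and 134 CPM in WT and 166, 157 and 161 CPM in KD in December and at 113, 112 and 114 CPM in WT and 151, 143, 141 and 148 CPM in KD in October (log2 fold change 0.34, standard error 0.046, adjusted p = 8.76e-05 from edgeR). Gyg, glycogenin, which primes glycogen chains, rose by 0.48 on the same scale, from 13.7 to 16.6 CPM to 17.7 to 20.6 CPM and from 11 to 13.8 CPM to 17.8 to 20.3 CPM. Genes that break glycogen down and that start it were thus higher together.

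TotM, a stress-induced secreted peptide of the Turandot family, stood at 56.6, 49.5 and 66.9 CPM in WT and 68, 90.2 and 85.1 CPM in KD in December and at 210, 207 and 141 CPM in WT and 548, 521, 437 and 505 CPM in KD in October (log2 fold change 1.0, adjusted p = 0.000134 from edgeR). Its transcript is short (552 nt), unlike those of most higher members. Grp170, an endoplasmic reticulum chaperone, rose by 0.34 and Traf4 by 0.34.

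Among the lower members were Vago, a secreted protein of the antiviral response, at 2.32 to 2.91 CPM in WT and 1.49 to 2.04 CPM in KD in December and at 8.61 to 11.3 CPM and 5.08 to 5.23 CPM in October (-0.73), GNBP2, of the glucan-binding protein family (-0.44), and GstT1, a glutathione transferase (-0.40).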
